A study of Mus musculus with 4 samples.

Results

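The MYC and MAX network is a set of basic helix-loop-helix leucine zipper transcription factors, and its transcripts were followed here in mouse B lymphocytes that were at rest or activated. The 10 genes Myc, Mycn, Max, Mxd1, Mxd3, Mxd4, Mxi1, Mnt, Mlx and Mga were taken by name out of 22180 genes that had a probe set with 1 symbol, and the brightest probe set over the 4 arrays stood for each gene. The cells came from the spleens, thymi and lymph nodes of mice on a C57BL/6 background and were sorted for B220 (CD45R), a B lineage form of the CD45 phosphatase. The mice were wild type or carried Tilcara (Til), which the labels call a PKCbeta mutant model without saying what the mutation is. Cells of each genotype were left without stimulation or received, for 4 hours, 10 ng/mL of the phorbol ester PMA, which activates protein kinase C enzymes, and 1 µM of the calcium ionophore A23187. There was 1 array per group and thus no replicate, and the labels give neither the age nor the number of the mice behind an array.

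MYC drives growth and division by binding DNA as a pair with MAX, at sites called E-boxes whose best known form is CACGTG. MAX also pairs with the MXD proteins, with MNT and with MGA, which carry repressor complexes to the same kind of site, so the network is often described as a balance between activating and repressing partners of MAX. MLX is a MAX-like protein that pairs with MXD1, MXD4, MNT and the glucose-responsive factors MondoA and ChREBP. In lymphocytes Myc is a classic early response gene of antigen receptor signalling, and MXD proteins are associated with resting or differentiating cells.

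Signals are log2 values, so a difference of 1 is 2-fold. The signal floor was set at 3.83, the median over probe sets with 1 symbol, and a gene was used where its highest value reached it. This kept 12456 genes, among them 9 of the 10 members. Mycn did not pass. A difference between 2 arrays has no test. Stimulation and genotype were tested together with limma over the 4 arrays, where both genotypes serve as the 2 samples of each state. The spread behind a p-value is how far the 2 responses of a gene differ, pooled by limma with that of all genes. Most standard errors (SE) are thus close to a shared value, and a p-value follows largely from the size of the change. Neither measures a spread between replicates. Rose and fell are used for genes past an adjusted p of 0.05 in that fit.

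B cell markers were present on every array. All 7 measured markers (Ms4a1, Cd79a, Cd79b, Pax5, Cd22, Blk and Ptprc) lay above the floor throughout, with a mean signal of 10.3 and 10.2 in the non-stimulated wild-type and Tilcara arrays and 7.39 and 7.76 in the stimulated ones. Markers of T cells, neutrophils and macrophages had their highest sums in the non-stimulated wild-type array. There 5 of 6 T cell markers and 3 of 8 neutrophil markers reached the floor, against 1 of 6 and 0 to 2 of 8 on the other arrays. The summed signal of the neutrophil list was 37.7 in that array and 21.6 to 24.3 elsewhere, that of the T cell list 26.4 and 19.8 to 21.2, and that of the macrophage list 23.9 and 19.1 to 19.3. NK cell markers summed to 25.1 and 26.1 in the non-stimulated arrays and to 19.0 and 18.2 in the stimulated ones, and plasma cell markers to between 19.9 and 21.1 on all 4. The 4 measured markers of dividing cells summed to 16.1 in wild type and 13.9 in Tilcara at rest, and to 16.5 and 15.3 after stimulation. Only 2 of them reached the floor on both wild-type arrays and in non-stimulated Tilcara, and 1 in stimulated Tilcara, so no direction is read from these sums. The markers did not move together, as Mki67 was lower and Top2a higher after stimulation in both genotypes. The part of these differences in the results below was not tested. In sorted bulk cells, fewer cells of a type and less RNA per cell cannot be told apart.

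Stimulation moved 4 of the 9 measured members, 2 up and 2 down. Myc and Mnt rose, and Mxd4 and Mxi1 fell. Among all genes, 22% rose and 22.8% fell in the same fit, so the shares of the network that moved were close to the background. By size, Myc was the single member at least 2-fold higher and Mxd4 the single member at least 2-fold lower, in wild type (13.4% and 15.9% of all genes) and again in Tilcara (11.9% and 14.3%).

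**Figure D1:**
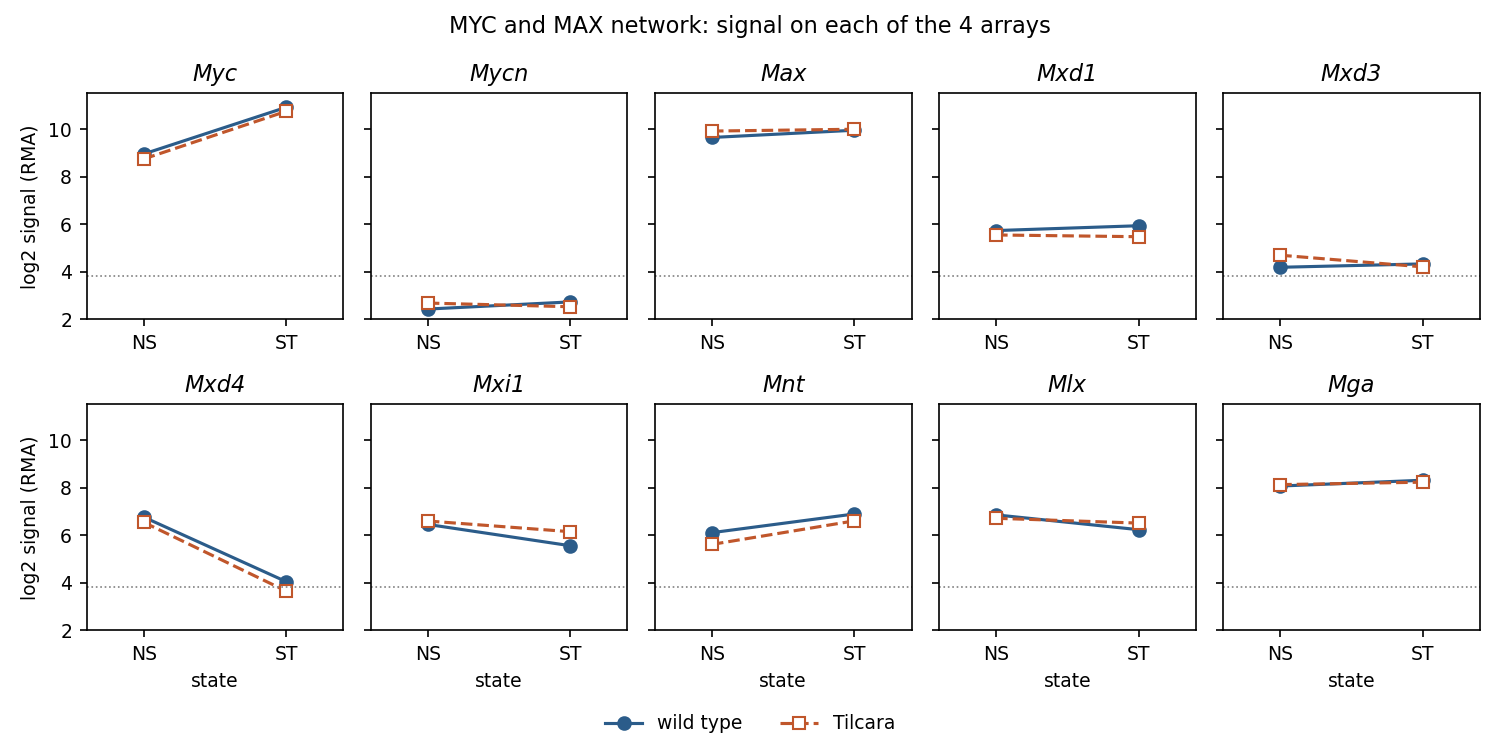
Log2 RMA signal (vertical axis) of each of the 10 genes on the 4 arrays, with NS for non-stimulated and ST for stimulated cells on the horizontal axis. Filled circles joined by solid lines are wild type, open squares joined by dashed lines are Tilcara, each point is 1 array, and the dotted line is the signal floor of 3.83. Myc rises and Mxd4 falls in both genotypes, and Mycn stays below the floor.

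Myc encodes the network's activating factor. Its probe set 17311846 read 8.96 in non-stimulated wild type and 8.75 in non-stimulated Tilcara, and 10.92 and 10.75 after stimulation. Both stimulated arrays lay above both non-stimulated arrays, with no overlap. The states of the uncalled Max, Mlx and Mga were also separated, by gaps of 0.04, 0.20 and 0.10. Such a separation thus does not set the called members apart, and the share of all genes with it was not counted. The increase was 3.90-fold in wild type and 4.01-fold in Tilcara. Over both genotypes Myc rose by a log2 change of 1.98 (SE 0.15, limma adjusted p = 0.00168), and 2.91% of all genes had a larger increase. Mycn, the paralog known from neural and embryonic tissue, read 2.44, 2.69, 2.74 and 2.54 in the non-stimulated wild-type and Tilcara and stimulated wild-type and Tilcara arrays. Every one of these values is below the floor, so no direction is read from them. The third family gene, Mycl, was also below the floor, with values from 2.75 to 2.97.

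Max, the common partner, differed little between arrays. It read 9.65 and 9.92 without stimulation and 9.96 and 10.00 with it, in wild type and Tilcara respectively, a range of 0.35 over the 4 arrays. Its stimulated values were the higher ones in each genotype by 0.30 and 0.08, but limma did not call it (log2 change 0.19, SE 0.16, adjusted p = 0.376), and the sign of its change turned under cyclic loess normalization, at −0.0202. Beside the 3.95-fold rise of Myc over both genotypes, the Max signal was 1.23-fold and 1.05-fold higher in wild type and Tilcara.

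The MXD genes encode small repressors that compete with MYC for MAX, and the 4 of them did not move together. Mxd4 (probe set 17447218) had the largest change of the network. It read 6.76 in wild type and 6.54 in Tilcara at rest, and 4.05 and 3.65 after stimulation. The states were separated by a gap of 2.50 between the nearest arrays, and the stimulated Tilcara value lies below the floor, so the fold there is approximate. Mxd4 was 6.57-fold lower in wild type and 7.42-fold lower in Tilcara, and fell by 2.80 on the log2 scale over both (SE 0.15, limma adjusted p = 0.00121). Only 2.10% of the 12456 genes had a larger decrease in that fit.

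Mxi1 encodes the repressor also known as MXD2. Its brighter probe set, 17365690, read 6.45 and 6.60 in non-stimulated wild type and Tilcara, and 5.56 and 6.15 after stimulation. All stimulated values lay below all resting ones, with a gap of 0.31 between the nearest pair. Mxi1 fell by 0.67 (SE 0.18, limma adjusted p = 0.0395), and the call was lost without the filter on low signals (limma adjusted p = 0.0633). The dimmer probe set, 17360331, read 5.55 and 5.52 at rest and 4.97 and 4.73 after stimulation. Both probe sets were lower in both genotypes, by 0.90 and 0.58 in wild type and by 0.45 and 0.79 in Tilcara, so they disagree on which genotype had the larger decrease.

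Mxd1, the founding repressor of the group, read 5.74 and 5.94 in wild type and 5.55 and 5.48 in Tilcara, before and after stimulation. Its states overlap, and limma did not call it (log2 change 0.06, SE 0.16, adjusted p = 0.775). Mxd3, which is associated with dividing cells, read 4.19 and 4.34 in wild type and 4.70 and 4.21 in Tilcara, all within 0.87 of the floor. It was not called either (log2 change −0.17, SE 0.21, limma adjusted p = 0.545).

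Mnt encodes the broadly expressed MAX partner that, like the MXD proteins, recruits SIN3 corepressors. It read 6.11 and 5.61 in non-stimulated wild type and Tilcara and 6.89 and 6.60 after stimulation, so both stimulated arrays lay above both resting arrays. The increases of 1.72-fold and 1.99-fold stayed just below the 2-fold line. Mnt rose by 0.89 (SE 0.15, limma adjusted p = 0.0116), and 14.4% of all genes had a larger increase.

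Mlx and Mga belong to the outer parts of the network. Mlx, the MAX-like partner of MondoA, read 6.85 and 6.71 at rest and 6.23 and 6.51 after stimulation. Both stimulated values were the lower ones, and the change was not called (log2 change −0.41, SE 0.18, limma adjusted p = 0.127). Mga, which encodes a very large MAX partner with a second, T-box DNA-binding domain, read between 8.07 and 8.31 on all 4 arrays, the narrowest range of the 9 members at 0.24. Its log2 change of 0.17 (SE 0.15, limma adjusted p = 0.402) turned to −0.0323 under cyclic loess.

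**Figure D2:**
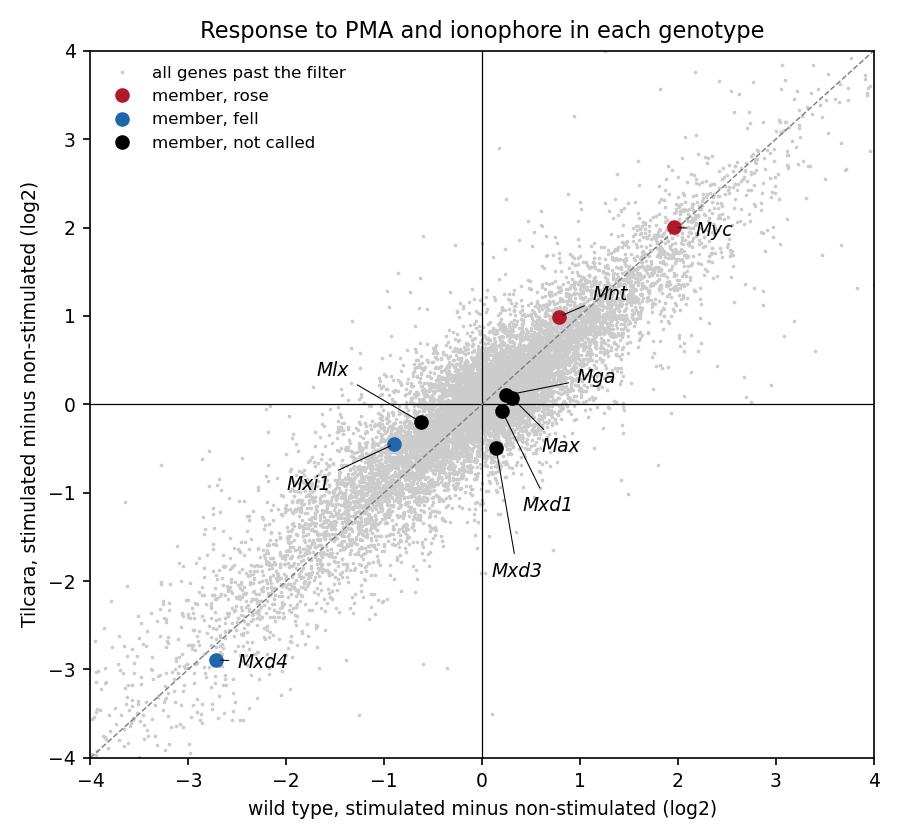
Response in Tilcara (vertical axis, log2 stimulated minus non-stimulated) against the response in wild type (horizontal axis, same unit) for the 12456 genes past the filter (grey) and the 9 members that passed it. Red members rose and blue members fell by limma, black ones were not called, the dashed line marks equal responses, and genes beyond 4 on either axis are not drawn. Myc lies near the dashed line at the upper right and Mxd4 at the lower left.

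In the members that changed most, both genotypes gave close values of the response. The difference between the Tilcara and the wild-type response was 0.04 for Myc (−0.0040 with each array centred on its median) and −0.18 for Mxd4. The Mxd4 value is approximate, since its stimulated Tilcara signal is below the floor. Over all genes the median size of the difference between responses was 0.25. This difference was 0.20 for Mnt, 0.45 for Mxi1 and 0.42 for Mlx, and its largest size was that of Mxd3 at −0.63. No member reached a difference of 1, which 3.97% of all genes did. This difference has no test, because it is the single residual degree of freedom of the fit. Mxd1 and Mxd3 were the members whose 2 responses had opposite signs, and the other 7 went the same way in both genotypes. The share of all genes with the same sign was not counted, so this count is not read as a result about the network. Under cyclic loess Max (0.08 in wild type and −0.12 in Tilcara) and Mga (0.04 and −0.10) also had opposite signs.

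Between genotypes, no member differed 2-fold in either state. Among all genes, 1.08% did so without stimulation and 1.7% with it. The largest differences without stimulation were those of Mxd3, 0.51 higher in Tilcara, and Mnt, 0.49 lower, and 9.77% and 10.6% of genes differed by more in size. With stimulation they were those of Mxi1, 0.59 higher in the Tilcara array, and Mxd1, 0.46 lower, and 8.16% and 14.5% of genes differed by more. Stimulated Mxd4 read 4.05 in wild type and 3.65 in Tilcara, and as the latter is below the floor no difference is read from it. The dimmer Mxi1 probe set differed the other way, at −0.24. Myc itself was 0.21 lower in Tilcara without stimulation and 0.17 lower with it, differences that 43.6% and 52.8% of genes exceeded. limma called none of the 9 members for genotype, none had an unadjusted p under 0.05, and over all genes it called 0, with 667 at an unadjusted p under 0.05. Mnt had the smallest unadjusted p among the members (limma log2 change −0.39, SE 0.15, adjusted p = 0.866). Non-stimulated arrays also differed in the markers of T cells and neutrophils given above, and the part of those cells in the genotype differences was not tested.

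**Figure D3:**
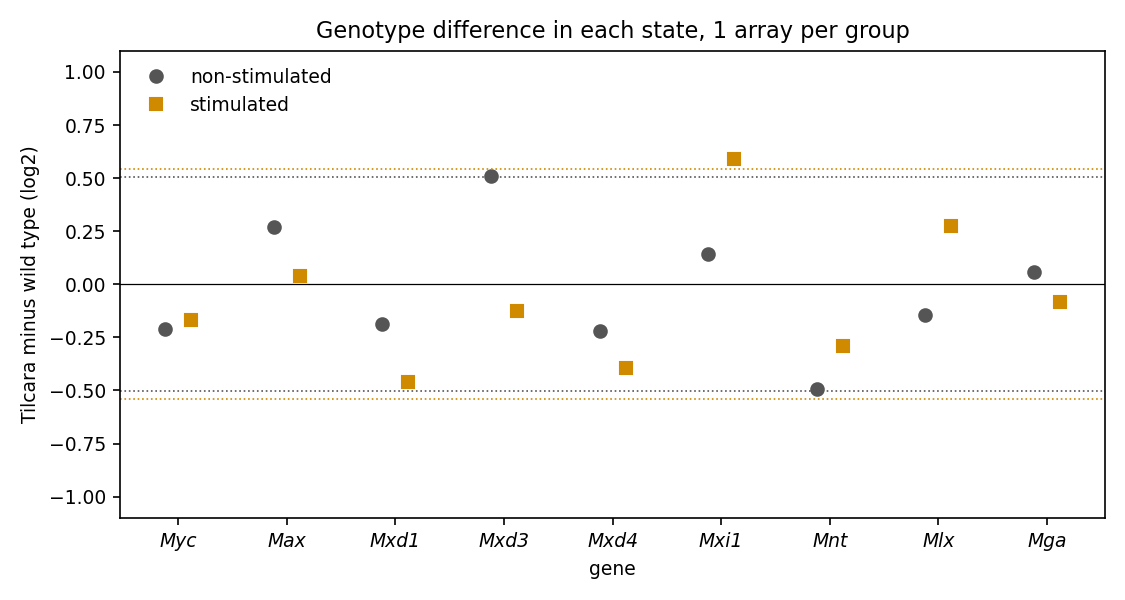
Tilcara minus wild type on the log2 scale (vertical axis) for each of the 9 members past the filter (horizontal axis), in non-stimulated (grey circles) and stimulated cells (orange squares), 1 array per group. Dotted lines of the same colours mark the size that 10% of all genes exceed, 0.50 without and 0.54 with stimulation. Mxd3 without stimulation and Mxi1 with it lie just beyond their lines, and every point is under 1 in size.

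The genes that MYC is known to induce rose almost together. Of 40 such genes listed, 34 passed the filter, and 32 of them rose, none fell, and 2 (Eif4a1 and Tfam) were not called, where 22% of all genes rose. Their median log2 change was 1.70, against 0.04 over all genes. The list was chosen with earlier results of these data known, so these shares are a description and no test of the list. Ccnd2, which encodes the G1 cyclin D2, read 7.35 and 6.80 at rest in wild type and Tilcara and 10.38 and 9.40 after stimulation, a rise of 2.81 (SE 0.18, limma adjusted p = 0.00141). Tfrc, for the transferrin receptor that brings in iron, rose by 2.68, Hk2, for the hexokinase that starts glycolysis, by 2.55, and Ppan, a ribosome assembly gene, by 2.47. Further genes of the list rose too, including Odc1, for the first enzyme of polyamine synthesis (2.06), Cad, for pyrimidine synthesis (1.73), and Ncl, for nucleolin (1.31). For Eif4a1 the brightest probe set differed by 0.17 and 0.11 and the other one by 1.30 and 1.07, so its probe sets disagree. In 24 of the 34 genes both genotypes were at least 2-fold higher, and 13 of 34 had the larger increase in Tilcara. The median difference between the genotypes' responses was −0.04, and no gene of the list differed 2-fold between genotypes in either state, Ccnd2 coming nearest with −0.97 after stimulation.

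Genes that MYC is known to repress went both ways. Of 13 listed, 8 passed the filter, 3 fell, 1 rose and 4 were not called, with a median log2 change of 0.11. Over all genes 22.8% fell and 22% rose, and these few counts are not read as a shift of the list. Cdkn1b, for the cell cycle inhibitor p27, read 8.47 and 8.72 at rest and 4.78 and 5.20 after stimulation, and fell by 3.60 (SE 0.15, limma adjusted p = 0.00109). Itgal, for an integrin chain of lymphocytes, fell by 1.99. Cdkn1a, for the inhibitor p21, rose by 2.03, from 4.42 and 4.88 to 6.44 and 6.93. Ndrg1 differed by 1.11 in wild type and by 0.22 in Tilcara and was not called. The probe set annotated to Mir15a was 1.32 lower in non-stimulated Tilcara than in non-stimulated wild type, with values of 5.09 and 6.40, and was not called for stimulation.

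Of 19 listed MYC coactivators and other MYC partners, 17 were measured (median 0.31). Among these, 4 rose, 1 fell and 12 were not called, where 22% of all genes rose and 22.8% fell. The genes that rose included Ruvbl1 (1.85) and Ruvbl2 (1.71), for the paired ATPases found in several chromatin complexes with MYC, and Wdr5 (1.64), for a chromatin adaptor that anchors MYC. Ep300, for the acetyltransferase p300, fell by 1.36. Trrap, for the large scaffold of MYC's acetyltransferase complexes, had a log2 change of 0.15 and Zbtb17, for the MYC partner MIZ1, one of 0.31, and neither was called.

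Corepressors that MXD proteins and MNT bind went both ways. Of 14 measured genes of the SIN3 and HDAC list, 3 rose, 2 fell and 9 were not called, with a median of 0.12, near the shares of all genes (22% and 22.8%). Rbbp7 (1.70), a histone-binding subunit, Hdac2 (1.19) and Sap30 (1.02) rose, and Hdac1 fell by 0.60. The scaffolds Sin3a (−0.15) and Sin3b (0.31) were not called.

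MGA works with a variant Polycomb complex, and most of that list rose although Mga was not called. All 12 genes were measured, of which 9 rose, 2 fell and 1 (Ring1, at 0.02) was not called, against 22% and 22.8% of all genes. Wdr5, given above with the MYC coactivators, is also in this list, and its rise is counted in both. Pcgf6, for the subunit that defines the complex, rose by 2.12, with 5.82 and 5.61 at rest and 7.86 and 7.80 after stimulation. Tfdp1, for the DP1 partner of E2F factors, rose by 1.84, and L3mbtl2 by 0.79. E2f6 rose too, by an approximate 0.96, since its non-stimulated wild-type signal of 3.22 is below the floor. Cbx3, for the chromatin reader HP1 gamma, fell by 1.69. The 4 probe sets of Cbx3 were all lower after stimulation, with 1 of them differing by −0.12 and −0.70 and the other 3 by −2.32 to −1.61. The median of the list was 0.93.

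Genes that control how long MYC protein lasts were mostly higher or not called, with 7 that rose, 2 that fell and 8 not called of 17 past the filter (median 0.50), where 22% of all genes rose and 22.8% fell. Pim1, a kinase gene whose product can stabilise MYC, read 6.01 and 6.13 at rest and 8.58 and 7.70 after stimulation in wild type and Tilcara, and rose by 2.07 (SE 0.28, limma adjusted p = 0.00604). The response in Tilcara minus that in wild type was −0.997, a difference that was not tested. Usp36, for a nucleolar deubiquitinase, rose by 1.69. Fbxw7, for the ubiquitin ligase subunit that marks MYC for destruction, rose by 0.68, while Gsk3b, for the kinase that prepares MYC for that ligase, fell by 1.62 and Btrc, for another ligase subunit, fell by 1.75.

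The MLX side of the network had few genes above the floor. Mlxip, which encodes MondoA, read between 8.08 and 8.39 and was not called (log2 change −0.20, SE 0.15, limma adjusted p = 0.360), and Mlxipl, for ChREBP, was below the floor. Of the 2 MondoA targets listed, Arrdc4 was below the floor. Txnip, a brake on glucose uptake, read 10.15 and 10.27 at rest and 5.52 and 6.57 after stimulation, and fell by 4.16 (SE 0.26, limma adjusted p = 0.00141). After stimulation it was 1.05 higher in the Tilcara array.

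Other factors that bind E-boxes gave 5 genes that fell, 1 that rose and 4 not called of 10 past the filter, with a median of −0.35, beside 22.8% of all genes that fell and 22% that rose. Bhlhe41, for a repressor of the circadian clock, fell by 1.43, and Usf1 fell by 1.42, while Bhlhe40, the near relative of Bhlhe41, rose by 1.39. Bhlhe41 was below the floor in stimulated Tilcara (3.36), which makes its size approximate. Tfeb, for a regulator of lysosome genes, also fell, from 4.04 and 4.03 to 3.42 and 2.92, both below the floor, so no size is given. Usf2 (0.08) and Hif1a (−0.04) were not called.

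**Figure D4:**
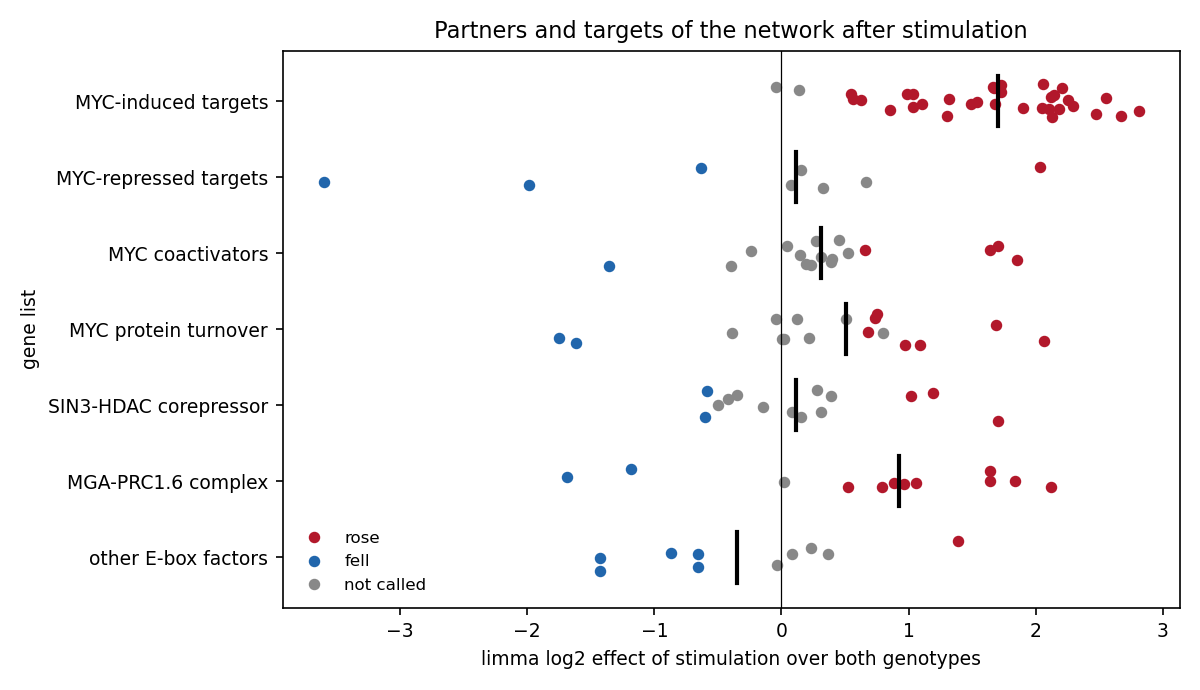
limma log2 effect of stimulation over both genotypes (horizontal axis) for the genes past the filter in 7 lists (vertical axis). Each point is 1 gene, red where it rose, blue where it fell and grey where it was not called, spread vertically at random within its row, and the black bar is the list's median. The MYC-induced targets have a median of 1.70 and a lowest value of −0.04 (Tfam), and the other lists also have genes on both sides of 0.

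Since these factors bind E-boxes, the members' own promoters were searched for the motif. RefSeq promoter windows (GRCm38.p6, 250 bases before to 50 after an annotated start) held 9 of the 10 members, all but Myc, in 11 windows. CACGTG, which reads the same on both strands, was found in the windows of 4 members, Max, Mlx, Mnt and Mxd4, which is 44.4% of the members matched. Of all 27025 genes with a window, 8.09% had the motif, and among the windows with at least 60% GC the share of genes was 11.6%. Such a match is a description of the sequence and no evidence of binding in these cells. The 4 sites are shown with 12 bases on each side, 5′ to 3′ along the gene's strand, with the motif in capitals, because they set the 2 called members with a site, Mxd4 and Mnt, beside the 2 that were not called.
Mxd4 (chr5:34187912-34187941, minus strand): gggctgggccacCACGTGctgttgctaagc
Mnt (chr11:74830789-74830818, plus strand): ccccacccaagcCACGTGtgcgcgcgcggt
Max (chr12:76962234-76962263, minus strand): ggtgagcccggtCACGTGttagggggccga
Mlx (chr11:101087238-101087267, plus strand): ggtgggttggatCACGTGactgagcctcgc

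The motif began 219 bases before the annotated start in Mxd4, 123 in Mnt, 40 in Mlx and 3 in Max. A gene can have further starts, and these distances hold only for the start of the window used. In Mxd4 that start is the outer RefSeq bound of the gene. In Mnt, Max and Mlx the gene reaches further upstream, to 74830806, 76962323 and 101086707, so other starts would give other distances. Of these 4 members 1 fell, 1 rose and 2 were not called, and thus members that share the motif differed in their calls. The 250 bases before the Mxd4 start, the member with the largest change, hold the motif once and are given here with it in capitals (chr5:34187711-34187960, minus strand, 58.0% GC).
Mxd4 upstream: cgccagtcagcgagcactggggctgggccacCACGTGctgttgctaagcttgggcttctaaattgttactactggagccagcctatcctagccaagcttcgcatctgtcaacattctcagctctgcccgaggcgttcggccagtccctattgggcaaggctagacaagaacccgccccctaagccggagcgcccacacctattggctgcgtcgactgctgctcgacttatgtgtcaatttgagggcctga

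Among the MYC-induced targets, 10 of 35 genes with a window held the motif, or 28.6%. Cdk4, for the kinase that cyclin D2 activates, had the most with 4 sites, and it is named for that reason. Its sites are shown in the same way, as the densest set in the list.
Cdk4 site at 172 bases before the start (chr10:127063351-127063380, plus strand): atggcagccagtCACGTGccacacagcgta
Cdk4 site at 118 (chr10:127063405-127063434): aagtcaaggggtCACGTGggatagcaacag
Cdk4 site at 98 (chr10:127063425-127063454): atagcaacaggtCACGTGgccgtcagggcc
Cdk4 site at 11 (chr10:127063512-127063541): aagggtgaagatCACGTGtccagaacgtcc

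Cdk4 read 7.13 and 6.82 at rest in wild type and Tilcara and 8.56 and 8.74 after stimulation, and rose by 1.67 (SE 0.19, limma adjusted p = 0.00379).

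**Figure D5:**
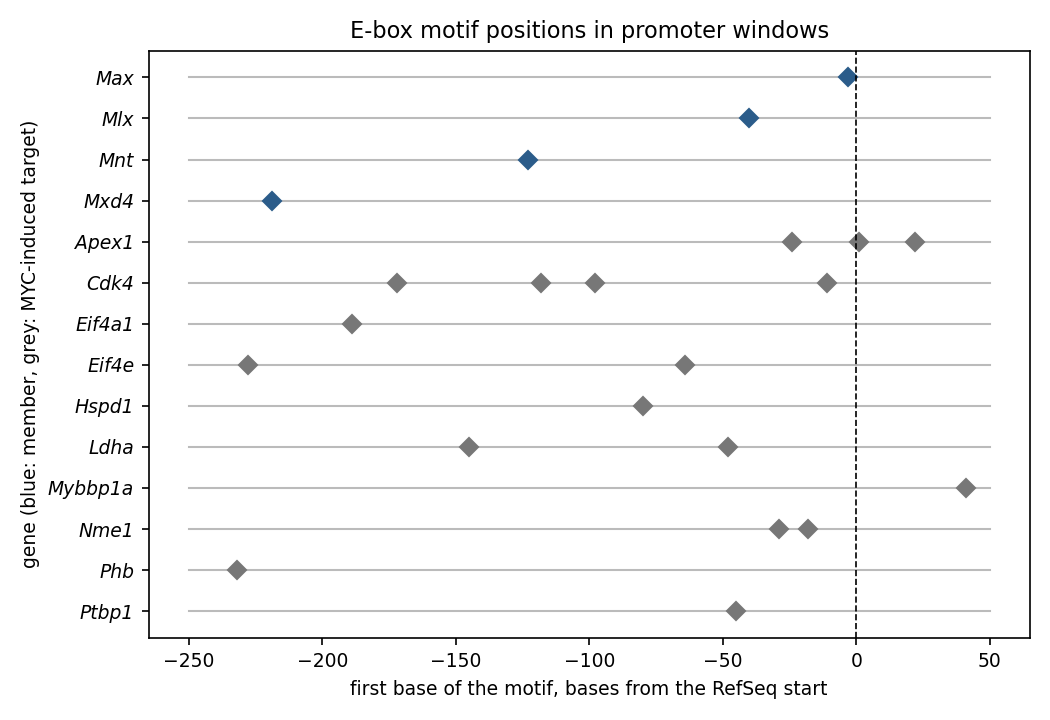
Position of each CACGTG match in the promoter windows, as the distance of its first base from the annotated RefSeq start (horizontal axis, bases, start at the dashed line), for members (blue) and MYC-induced targets (grey) with at least 1 match (vertical axis). Grey lines span the 250 bases before and 50 after the start, and each position is counted from the start of the window that holds the match. Nme1 has 2 overlapping windows with 1 different match in each, so its 2 points are counted from different starts and are not neighbours. Cdk4 has 4 matches, and the 4 members have 1 each.

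Genes with a pattern most like that of Myc were found by the distance between log2 values over the 4 arrays, each gene centred on its own mean. The 5 nearest were Btaf1, for an ATPase that removes TATA-binding protein from DNA (distance 0.05), Lmnb1, for the nuclear lamina protein lamin B1 (0.07), the interferon regulatory factor gene Irf1 (0.08), the scaffold gene Git1 (0.09) and Ankrd28 (0.09). Btaf1 read 7.06 and 6.85 at rest and 8.97 and 8.83 after stimulation. Within a distance of 0.5 lay 365 genes, so 4 arrays do not single Myc out. Nearest to Mxd4 were Atxn7l1 (0.08), the inflammasome sensor gene Nlrc4 (0.15), Fam168a (0.16), the receptor gene Notch2 (0.18) and Inpp5d (0.19), which encodes the lipid phosphatase SHIP1, with 85 genes within 0.5. Of these, Atxn7l1 (3.46) in stimulated Tilcara and Nlrc4 (3.27 and 2.80) in both stimulated arrays were below the floor. Notch2 read 8.19 and 7.85 at rest and 5.30 and 5.13 after stimulation.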

How the data were processed

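The deposited table holds log2 signals of 41345 probe sets on 4 Affymetrix arrays, which the authors made with RMA, per the submitters' processing notes; the sources used here give no version, settings or annotation. RMA normalizes quantiles between arrays, so a change in total RNA per cell cannot be seen. Platform annotation gave 1 symbol to 23521 probe sets, several to 1814 and none to 16010, and the gene IDs of 23328 were found in RefSeq. limma 3.58.1 in R 4.3.3 fitted stimulation and genotype additively over 12456 genes with Benjamini-Hochberg adjustment over all of them. The code was also run on simulated data with a single noise level for all genes and few changed genes. These settings differ from the data, so that run does not bear on the p-values given here. The number of arrays limits the precision, and replicate spread is unknown. The alternatives were median centring, cyclic loess, the mean over probe sets, no filter, a floor raised by 1 and an intensity trend.

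Members and lists were chosen with earlier results of these data known, so the shares of each list beside those of all genes are descriptions. Named genes are the members, up to 4 genes per list with the largest limma effect of stimulation, list genes that differed 2-fold between genotypes, and the 5 nearest patterns of Myc and Mxd4. Others (among them Odc1, Cad, Ncl, Fbxw7, L3mbtl2, E2f6, Eif4a1, Tfam, Ring1, Trrap, Zbtb17, Sin3a, Sin3b, Usf2, Hif1a and Cdk4) were chosen after their values were seen.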

Additional observations from a re-analysis of the deposited data

Results flagged for a closer look

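The responses of 6 genes that are named in the text and passed the filter had opposite signs in the genotypes. With 1 array per group these differences were not tested, and the share of all genes with opposite signs was not counted. Mxd1 differed by 0.20 with stimulation in wild type and by −0.07 in Tilcara, a difference of −0.28. Mxd3 differed by 0.14 and −0.49, a difference of −0.63, with all its signals near the floor. The probe set annotated to Mir15a differed by −0.13 and 0.77, a difference of 0.90. Smaller differences were those of Tfam (−0.16 and 0.08, difference 0.24), Hif1a (−0.14 and 0.06, difference 0.20) and Ring1 (−0.012 and 0.05, difference 0.060).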

How the results depend on the processing

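Of 182 alternative values of the counts and lists, 179 stayed within 1.5 times. Many of these were counts of 0 set against 0, and others were counts of member differences that a change of filter could hardly alter. The share that stayed was thus largely fixed in advance. Without the filter on low signals, 1 member fell in place of 2 (Mxi1 lost its call) and 0 genes of the SIN3 and HDAC list fell in place of 2; with cyclic loess, 2 MYC coactivators fell in place of 1. A change of the filter or an intensity trend cannot alter the log2 difference of a member, and the mean over probe sets alters only that of Mxi1. For the other members a sign could thus turn only under median centring and cyclic loess, and the remaining values repeat the reported ones. Of 326 alternative values of single members, 7 changed sign, none of them called and each at most 0.19 in size in the reported setting. Under cyclic loess these were the limma effects of stimulation on Max (−0.0202) and Mga (−0.0323), the Tilcara responses of Max (−0.12) and Mga (−0.10), and the stimulated genotype difference of Max (−0.0088). Under median centring they were the limma effect of genotype on Mga (0.0223) and the difference of responses of Myc (−0.0040). The cause was not tested. Myc, Mxd4 and Mnt were called under all 7 settings, with log2 changes of 1.77 to 1.98, −2.81 to −2.80 and 0.78 to 0.89, and Mxi1 under 6 of 7. Leaving out an array was not run, since 3 arrays leave the additive fit no residual degree of freedom. No paired analysis was possible because each group holds 1 array and the labels give no replicate numbers. Signals below the floor give no direction.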

Other observations

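Across all 9738 genes past the filter with a promoter window, those with CACGTG and those without were set side by side. Of 1129 genes with the motif 29.8% rose and 21.2% fell, and of 8609 without it 21.2% rose and 23.4% fell (limma calls, as above). Among genes with at least 60% GC in the window the shares that rose were 30.5% of 666 and 23.3% of 4383. Genes are not independent replicates, and this contrast was not tested. Within the MYC-induced targets past the filter, the median log2 change was 1.32 in the 8 genes with it and 1.90 in the 21 without it.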
